A study of Homo sapiens with 6 samples.

Results

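Metallothioneins and genes of zinc transport were followed in HepG2, an established human hepatocellular carcinoma cell line, after transfection with control siRNA or FTO siRNA. The set held 10 genes, matched by symbol to the gene identifiers of the count files, of 60483 identifiers in all. They were the metallothioneins MT1A, MT1E, MT1F, MT1G, MT1M, MT1X and MT2A, the transcription factor gene MTF1, and the zinc transporters SLC30A1 and SLC39A14. RNA sequencing gave raw read counts per gene in 3 libraries of each group, numbered 1 to 3. All cells were HepG2 grown with fetal bovine serum, and the groups differed in the siRNA. No siRNA sequence, dose or time is given in the sources used here. FTO is a demethylase of N6-methyladenosine in RNA, and the series asked which genes it regulates in this cancer.

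Metallothioneins are small cysteine-rich proteins of the cytosol that bind zinc, copper and cadmium. Liver cells make them in quantity when zinc or cadmium rises, and under glucocorticoids, oxidative stress and interleukin 6. Zinc is sensed by MTF1, a zinc finger transcription factor that binds metal response elements (MREs) in promoters of metallothioneins and of SLC30A1. SLC30A proteins move zinc out of the cytosol and SLC39A proteins move it in.

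The metal response elements are shown first because they are the sequence feature that joins MTF1 to its targets. RefSeq promoter windows (GRCh38.p14) were used for 4 of the 10 genes, MT2A, MT1X, SLC30A1 and MTF1. The 250 bases before each annotated start were searched on both strands for the MRE core, TGCACNC or TGCGCNC, and matches are in capitals. The windows are chr16:56608334-56608583 on the plus strand for MT2A, chr16:56682220-56682469 on the plus strand for MT1X and chr1:211579162-211579411 on the minus strand for SLC30A1.
MT2A: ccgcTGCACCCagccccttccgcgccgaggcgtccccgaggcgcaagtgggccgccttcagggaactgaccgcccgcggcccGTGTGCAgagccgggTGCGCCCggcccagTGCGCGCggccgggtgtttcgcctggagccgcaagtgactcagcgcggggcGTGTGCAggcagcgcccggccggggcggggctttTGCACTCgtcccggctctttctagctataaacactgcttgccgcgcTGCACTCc
MT1X: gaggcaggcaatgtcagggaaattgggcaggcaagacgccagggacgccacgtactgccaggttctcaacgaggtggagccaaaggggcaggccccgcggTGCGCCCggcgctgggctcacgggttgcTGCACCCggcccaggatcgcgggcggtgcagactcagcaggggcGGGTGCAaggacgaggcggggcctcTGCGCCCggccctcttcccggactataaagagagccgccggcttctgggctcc
SLC30A1: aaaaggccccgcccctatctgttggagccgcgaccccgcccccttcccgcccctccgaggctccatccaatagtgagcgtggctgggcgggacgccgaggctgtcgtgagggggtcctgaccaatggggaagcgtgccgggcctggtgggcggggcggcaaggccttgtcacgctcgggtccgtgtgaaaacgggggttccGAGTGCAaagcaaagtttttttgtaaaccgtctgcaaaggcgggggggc

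The MT2A window held 7 matches to the MRE core, that of MT1X 4 and that of SLC30A1 1, while these letters do not occur in the MTF1 window. Among all 35116 promoter windows of this length, 24.8% held at least 1 match, 0.37% at least 4 and 0.0313% at least 7. Matches did not overlap each other in MT2A or MT1X. Both metallothionein windows also held the TATA box letters TATAAA (10.7% of all windows) and the antioxidant response element core TGACNNNGC (10.9%), and SLC30A1 held the latter. The letters TTCNNNGAA of the STAT palindrome (6.57%) were in the MT2A window but not in those of MT1X, SLC30A1 and MTF1. None of these overlapped an MRE match. A match is a run of letters, and binding was not measured. The MT1H window held 8 matches, yet MT1H had 2 counts in FTO siRNA 1 and 0 in each of the other 5 libraries.

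Total counts lay between 15713279 and 18390953 per library, so that 3 counts correspond to between 0.163 and 0.191 CPM, counts scaled to a common library size. The floor, like the binomial intervals given later, reflects counting error alone, and reads without molecular identifiers are not independent molecules. FTO itself was lower in every library labelled FTO siRNA than in every control, at 11.2, 14.5 and 5.21 against 40.8, 37.96 and 38.8 CPM. Adjusted as described next, 7.53% of the 15025 tested genes had a called rise and 3.83% a called fall. The hepatocyte markers used to check the cell type, among them ALB, AFP and APOB, were all counted, and 0 of 10 passed the test. All 10 had a negative log2 fold change, with a median of -0.30. APOB, the apolipoprotein of secreted liver lipoproteins, had the largest difference, at 8180, 7419 and 5071 CPM in the controls and 1405, 2381 and 4062 CPM with FTO siRNA (adjusted p = 0.065), and the part of this in the values below was not tested. The labels do not say whether the 3 libraries of a group are separate cultures, so the p-values measure the spread between these libraries, which may be technical. CPM values are scaled by TMM, a composition factor per library, and given as mean ± SD over n = 3 libraries. Log2 fold changes (FTO siRNA over control siRNA) carry their standard error. Adjusted p-values come from edgeR's quasi-likelihood test with Benjamini-Hochberg adjustment over all tested genes, with a threshold of 0.05.

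Metallothionein mRNAs were more abundant after FTO siRNA. MT1E, MT1G, MT1M, MT1X and MT2A rose, and MT1A and MT1F did not pass the test. The number called was 5 of 10 higher, with 7.53% over all tested genes, and 0 of 10 lower, with 3.83%. The values of the groups did not overlap for the same 5 genes, with FTO siRNA higher, as for 19.2% of all tested genes, or 36.5% counting either direction. All 10 genes passed the filter on low counts, but MT1G passed it through the FTO siRNA libraries alone, with 0 of 3 controls over it, and MT1M with 2 of 3 controls over it. MT1G and MT1M are therefore not read against these shares, which leaves MT1E, MT1X and MT2A. The median log2 fold change was 1.09 over the 7 metallothioneins and 0.04 over all tested genes.

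MT2A, the most counted metallothionein here and the main isoform of many human cells, stood at 24.7, 56.7 and 27.3 CPM in controls 1, 2 and 3. It stood at 131, 86.04 and 63.2 CPM in FTO siRNA 1, 2 and 3. The groups came close only at control 2 and FTO siRNA 3. The mean went from 36.2 ± 17.7 to 93.5 ± 34.6 CPM, and MT2A rose by 1.37 ± 0.36 on the log2 scale (adjusted p = 0.0461).

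MT1E, the next most abundant, had 16.2, 22.7 and 17.6 CPM in the controls and 51.5, 40.3 and 25.2 CPM with FTO siRNA. Again the highest control was control 2 and the lowest treated library was FTO siRNA 3, and they did not overlap. MT1E rose by 1.05 ± 0.27 (adjusted p = 0.0392). MT1X, the isoform that lies at the end of the gene cluster, had 3.42, 3.899 and 4.11 CPM in the controls and 7.87, 8.59 and 6.08 CPM with FTO siRNA. It was the most even of the family within the controls and rose by 0.97 ± 0.22 (adjusted p = 0.0283).

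The largest fold changes belonged to isoforms with few counts. MT1G had 4, 7 and 2 counts in the controls and 43, 20 and 28 with FTO siRNA, or 0.253, 0.426 and 0.121 against 2.66, 1.24 and 1.43 CPM. Each treated library was above each control, and MT1G rose by 2.69 ± 0.52 (adjusted p = 0.0157), a 6.47-fold change. MT1M had 9, 17 and 11 counts in the controls and 75, 53 and 34 with FTO siRNA. These correspond to 0.5702, 1.04 and 0.664 CPM against 4.65, 3.27 and 1.74 CPM. MT1M rose by 2.06 ± 0.45 (adjusted p = 0.0233), or 4.17-fold, with no overlap of the groups.

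For MT1F and MT1A the groups overlapped at FTO siRNA 3. MT1F had 4.88, 10.05 and 5.61 CPM in the controls and 14.5, 10.9 and 7.31 CPM with FTO siRNA. Control 2 was thus above FTO siRNA 3, and the log2 fold change of 0.67 ± 0.34 did not pass (adjusted p = 0.243, 95% interval -0.11 to 1.44). MT1A had 0.697, 0.853 and 0.785 CPM in the controls, 2.73 and 2.1001 CPM in FTO siRNA 1 and 2, and 0.307 CPM, from 6 counts, in FTO siRNA 3. The last was the lowest of all 6 libraries, and the log2 fold change of 1.09 ± 0.66 did not pass (adjusted p = 0.316, 95% interval -0.41 to 2.58).

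**Figure D1:**
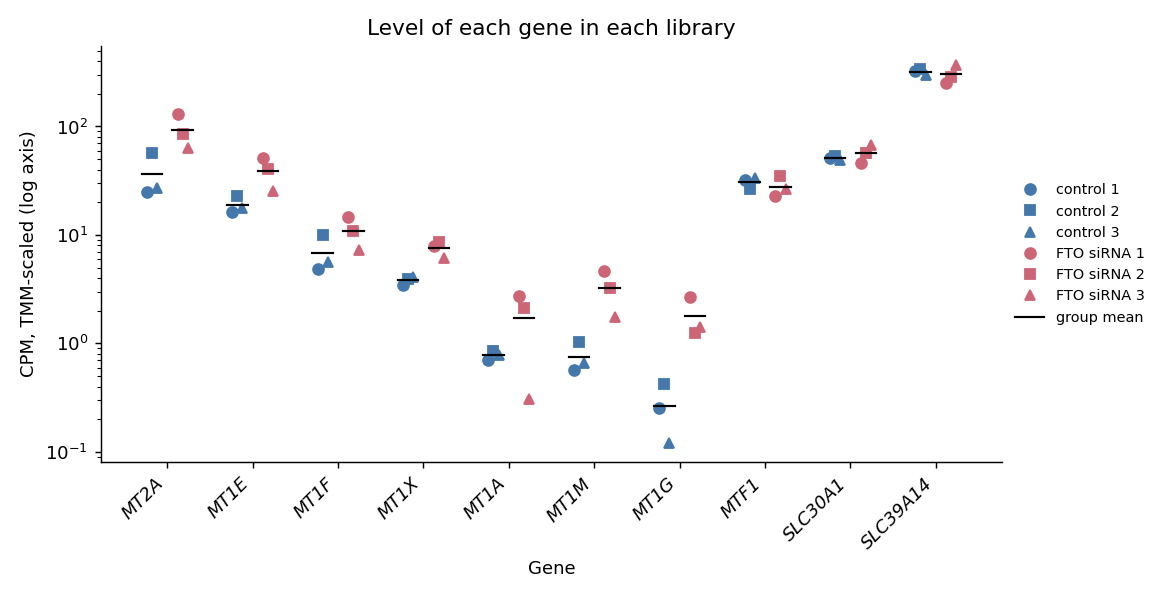
Level of each of the 10 genes in each library, in CPM on a log axis; points are libraries, with shape for the replicate number, and black lines are group means of 3 libraries. The groups do not overlap for MT2A, MT1E, MT1X, MT1M and MT1G, and they overlap for MT1F, MT1A, MTF1, SLC30A1 and SLC39A14.

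Summed over the 7 metallothioneins, the level was 50.8, 95.6 and 56.2 CPM in controls 1, 2 and 3 and 215, 152 and 105 CPM in FTO siRNA 1, 2 and 3. The mean sum went from 67.5 ± 24.5 to 158 ± 55.1 CPM, 2.33 times the control. FTO siRNA 1 was the highest of all 6 libraries for 6 of 7 metallothioneins, FTO siRNA 3 was the lowest of its group for 6 of 7, and control 2 was the highest control for 6 of 7.

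The mix of isoforms was led by MT2A in every library. Its share of the summed metallothionein counts was 48.7% in control 1 (exact binomial 95% interval 45.2 to 52.2), 59.3% in control 2 (56.8 to 61.7) and 48.5% in control 3 (45.3 to 51.8). With FTO siRNA it was 61.002% (59.4 to 62.6), 56.4% (54.5 to 58.4) and 60.05% (57.9 to 62.2) in libraries 1, 2 and 3. The groups overlapped, since control 2 lay above FTO siRNA 2. The shares of the other isoforms are given by group. MT1F held 9.61 to 10.5% of the counts in the controls and 6.74 to 7.17% with FTO siRNA. MT1M held 1.08 to 1.18% and 1.65 to 2.16%, and MT1G 0.215 to 0.499% and 0.81 to 1.36%. These 3 shares did not overlap between the groups. They were singled out after their values were seen, and an exact permutation test of 3 against 3 libraries cannot go below 0.1.

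**Figure D2:**
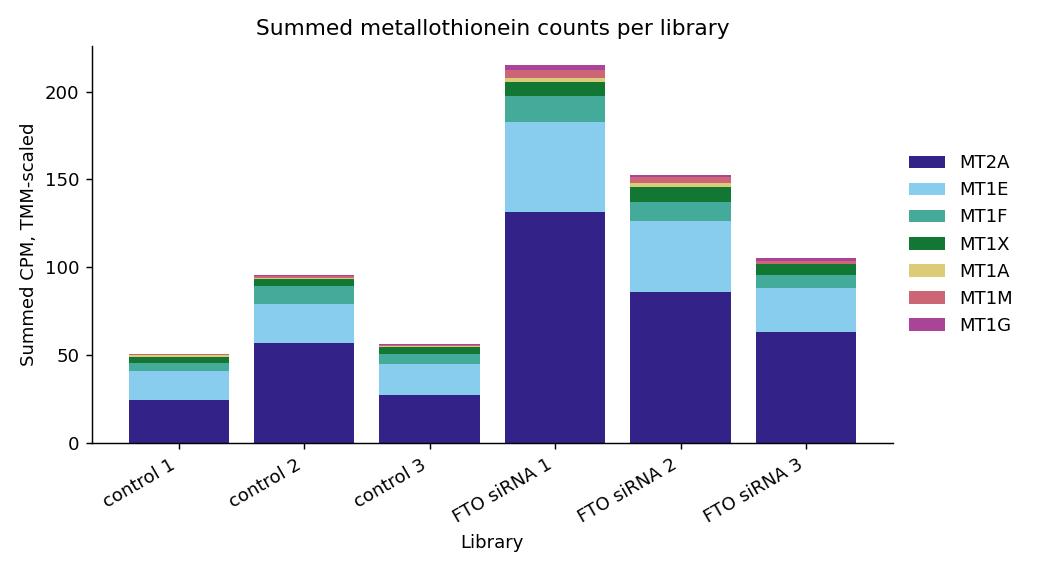
Summed CPM of the 7 metallothioneins in each library, with the part of each isoform stacked. The sum lies between 50.8 and 95.6 in the controls and between 105 and 215 with FTO siRNA, and MT2A is the largest part of each bar.

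Per length, the order of the metallothioneins in the controls was MT2A, MT1E, MT1F, MT1X, MT1A, MT1M and MT1G. The level was 40.1 ± 19.7 CPM per kilobase of longest GENCODE 29 transcript for MT2A, 25.8 ± 4.65 for MT1E, 4.35 ± 1.78 for MT1F, 2.21 ± 0.203 for MT1X and 1.97 ± 0.198 for MT1A. It was 0.913 ± 0.297 for MT1M and 0.425 ± 0.244 for MT1G. Ranges of 1 SD around the means overlapped for the neighbours MT2A and MT1E, MT1X and MT1A, and MT1M and MT1G. On the same scale SLC39A14 stood at 69.2 ± 4.13, SLC30A1 at 9.41 ± 0.42 and MTF1 at 3.83 ± 0.468. With the median transcript length in place of the longest, MT1X stood at 7.01 and SLC39A14 at 453, so these levels rest on the transcript model.

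The metallothionein genes have stretches of sequence in common, and reads from these could be shared among them. Of the distinct 50-base words in the longest transcript, 14.7% also occur in transcripts of other genes for MT1X, 14.3% for MT1G, 10.6% for MT1E, 7.05% for MT1M, 5.76% for MT1A, 4.68% for MT2A and 0.0656% for MT1F. The words of MT1X are shared mainly with AC026461.1, and those of MT1G with MT1H, MT1E, MT1M and MT2A. How the authors' counting treated such reads is not stated, so the split among isoforms is uncertain. For SLC30A1 and SLC39A14 the share of such words was 0%, and for MTF1 it was 0.644%.

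The calls of single metallothioneins depended on which libraries were in the fit, while the direction did not. In 111 of 111 alternative fits of these 7 genes the log2 fold change was positive. These fits reuse the same libraries and are not independent checks. Where the groups did not overlap, leaving out a library could hardly turn the sign. With 1 library left out, the number of the 10 genes called was 0 without control 1, 1 without control 2 (MT2A), 0 without control 3, 1 without FTO siRNA 1 (MT1G), 1 without FTO siRNA 2 (MT1G) and 7 without FTO siRNA 3. The 7 were all the metallothioneins, MT1A (adjusted p = 0.00579) and MT1F (0.0436) included. For MT2A the adjusted p was 0.176 without control 1, 0.15 without control 3, 0.126 without FTO siRNA 1 and 0.0918 without FTO siRNA 2. For MT1E it was 0.168, 0.0913 and 0.13 without controls 1, 2 and 3, and 0.102 and 0.0948 without FTO siRNA 1 and 2. MT1X gave 0.154, 0.119, 0.0893, 0.0719 and 0.0763 in the same order, and MT1M gave 0.114, 0.0681, 0.0863, 0.0625 and 0.0578. MT1G lost its call without control 1 (0.0828), control 2 (0.0514) or control 3 (0.0653). Fewer genes were called over the whole table in these fits as well, from 236 higher without control 1 to 883 higher without FTO siRNA 2, against 1132 with all libraries, and 2430 without FTO siRNA 3.

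**Figure D3:**
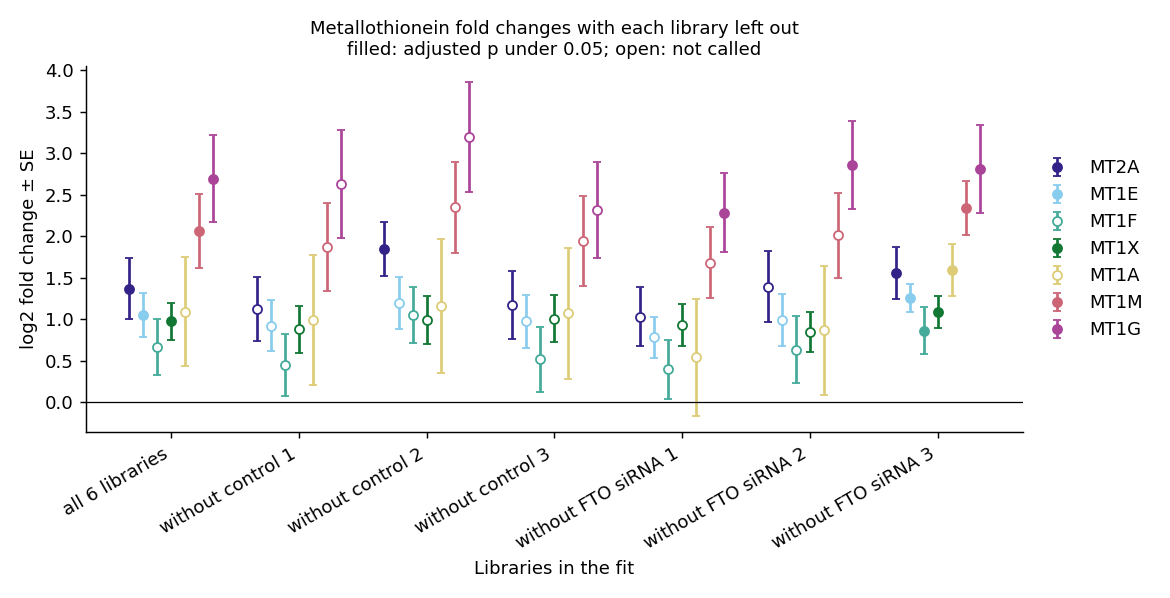
Log2 fold change ± SE of the 7 metallothioneins with all 6 libraries and with each library left out; filled points have an adjusted p under 0.05 and open points do not. All points lie above 0, from 0.39 for MT1F without FTO siRNA 1 to 3.19 for MT1G without control 2, and all 7 are filled only without FTO siRNA 3.

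Other features of the libraries moved with the groups. Tested genes with a longest transcript of over 600 and up to 1000 bases, the range of MT1E, MT1G, MT1M and MT2A, had a median log2 fold change of 0.21, and those over 4000 bases one of -0.09. For the shorter genes the median log2 difference from the control mean was 0.36 in FTO siRNA 1, 0.14 in FTO siRNA 2 and 0.10 in FTO siRNA 3. With trends on longest transcript length and GC content removed from each library, MT2A came to 1.13 (adjusted p = 0.0676), MT1X to 0.77 (0.052), MT1E to 0.86 (0.0495), MT1M to 1.74 (0.0323) and MT1G to 2.51 (0.0178). MT2A and MT1X thus lost their calls. With the median transcript length instead, MT2A came to 1.26 (adjusted p = 0.0544) and MT1X kept its call (0.0373).

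Markers of other cells moved too. Of 12 immune markers 7 were tested and 5 rose (PTPRC, CD3D, CD2, NKG7 and CD74). PTPRC, CD3D, CD2 and NKG7 passed the filter only through the FTO siRNA libraries, with 0 of 3 controls over it, so their number is not read against the 7.53% of all tested genes called higher. Their control means were 0.0404, 0.308, 0.0604 and 0.0422 CPM and their FTO siRNA means 1.17, 3.05, 0.833 and 1.17 CPM, while CD74 went from 2.91 to 12.1 CPM. The sum over the list was 51.7 to 102 CPM in the controls and 78.8 to 111 CPM with FTO siRNA. Most of it was LYZ, which did not pass (72.8 and 71.7 CPM, adjusted p = 0.967), and MS4A1 and LST1 were at 0 in all controls. Of 9 fibroblast markers 7 were tested, 3 rose (COL1A1, COL1A2 and TAGLN) and 0 fell, beside 7.53% and 3.83% of all tested genes. Their sums were 117 to 203 CPM in the controls and 277 to 613 CPM with FTO siRNA, and DCN and THY1 were at 0 in all controls. Of 5 endothelial markers 1 was tested and did not pass, with sums of 20.3 to 25.5 and 14.9 to 23.7 CPM and KDR at 0 in every library. Of 7 genes listed as markers of cervical and kidney lines 4 were tested, KRT17 and LIN28A rose and LIN28B fell. KRT17 passed the filter only through the FTO siRNA libraries, and LIN28A had 1 of 3 controls over it, so these rises are not read against the 7.53%. The list had sums of 372 to 403 and 212 to 269 CPM, and KRT5 and KRT14 were at 0 in all controls. Most of these sums came from LIN28B, with means of 386 CPM in the controls and 223 CPM with FTO siRNA. At that level in the control HepG2 cells, LIN28B cannot be read as a marker of other cells. The sums of this list are therefore no measure of such cells. The part of these cells in the metallothionein values was not tested. In bulk RNA, a change in the number of cells of a type and a change in RNA per cell cannot be told apart.

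MTF1, the zinc sensor, had no called change. Its values were 32.2, 26.3 and 33.1 CPM in the controls and 22.7, 34.7 and 26.3 CPM with FTO siRNA. The groups overlapped throughout, with the highest and the lowest value both in FTO siRNA libraries. The log2 fold change was -0.13 ± 0.19 (adjusted p = 0.706), and its 95% interval ran from -0.58 to 0.31. These counts measure the mRNA, not the protein or its activity.

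SLC30A1 encodes the exporter ZnT1 of the plasma membrane, a standard MTF1 target. It had 51.4, 53.9 and 49.3 CPM in the controls and 46.5, 57.4 and 67.5 CPM with FTO siRNA. The controls lay inside the range of the treated libraries, and the difference of 0.15 ± 0.17 did not pass (adjusted p = 0.598, 95% interval -0.23 to 0.53). The difference between SLC30A1 and the metallothioneins was not tested. With length and GC trends removed its log2 fold change was 0.31 (adjusted p = 0.126) by the longest and 0.398 (0.0708) by the median transcript, and without FTO siRNA 3 it was -0.013.

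SLC39A14 encodes the importer ZIP14, which carries zinc and also manganese and iron into hepatocytes. It was the most counted of the 10 genes, at 323, 339 and 301 CPM in the controls and 253, 286 and 370 CPM with FTO siRNA. FTO siRNA 1 and 2 were below every control and FTO siRNA 3 above every control, the reverse of the order seen for most metallothioneins. The difference of -0.08 ± 0.18 did not pass (adjusted p = 0.801, 95% interval -0.48 to 0.32). It was -0.28 without FTO siRNA 3 (adjusted p = 0.095) and 0.016 without FTO siRNA 1.

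The other zinc transporters were read from complete lists of the gene families. Of the other 9 SLC30A genes 6 were tested, and 0 rose and 0 fell (background 7.53% and 3.83%). Without FTO siRNA 3, where 2430 genes were called higher and 2152 lower over the whole table, 3 exporters were called, among them SLC30A3 (adjusted p = 0.042) and SLC30A6 (0.0406). DESeq2 called 1, SLC30A3 (0.04398). The smallest p-values belonged to SLC30A3, a transporter of synaptic vesicles, and to SLC30A6 of the Golgi. SLC30A3 had 0.317, 0.305 and 0.785 CPM in the controls and 1.61, 1.0501 and 1.64 CPM with FTO siRNA (log2 fold change 1.60 ± 0.44, adjusted p = 0.0507). SLC30A6 had 58.9, 61.3 and 55.2 CPM in the controls and 43.6, 48.5 and 42.2 CPM with FTO siRNA (-0.39 ± 0.13, adjusted p = 0.103). The groups overlapped for neither, but neither passed. SLC30A10, a manganese exporter named here after its values were seen, split the treated libraries. It had 35.9, 42.1 and 23.8 CPM in the controls, 7.19 and 8.59 CPM in FTO siRNA 1 and 2, and 40.4 CPM in FTO siRNA 3 (-0.85 ± 0.59, adjusted p = 0.39).

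Of the other 13 SLC39A genes 10 were tested, 1 rose and 0 fell (background 7.53% and 3.83%). In the fit without FTO siRNA 3, with 2430 genes higher and 2152 lower over the whole table, 5 were called. The gene that rose was SLC39A13, whose product ZIP13 releases zinc from vesicles and the Golgi into the cytosol. SLC39A13 had 13.9, 13.6 and 15.03 CPM in the controls and 20.7, 21.7 and 26.6 CPM with FTO siRNA, and rose by 0.70 ± 0.17 (adjusted p = 0.0329). Here FTO siRNA 3 was the highest library. The adjusted p was 0.168, 0.149 and 0.108 without controls 1, 2 and 3 and 0.0666 without FTO siRNA 2, and the call was also lost with no filter (0.0684) and with length and GC trends removed (0.0857 by the longest and 0.155 by the median transcript). SLC39A1, an importer of the plasma membrane, had 168, 175 and 192 CPM in the controls and 314, 269 and 200.3 CPM with FTO siRNA, and did not pass (0.55 ± 0.18, adjusted p = 0.0918) except without FTO siRNA 3 (0.00301). Of its words 71.3% occur in transcripts of another gene, AL358472.7. SLC39A7, which moves zinc from the endoplasmic reticulum into the cytosol, had the next smallest p-value (0.16 ± 0.15, adjusted p = 0.534). The median log2 fold change was -0.17 over the 6 other exporters and 0.16 over the 10 other importers, against 0.04 over all tested genes.

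**Figure D4:**
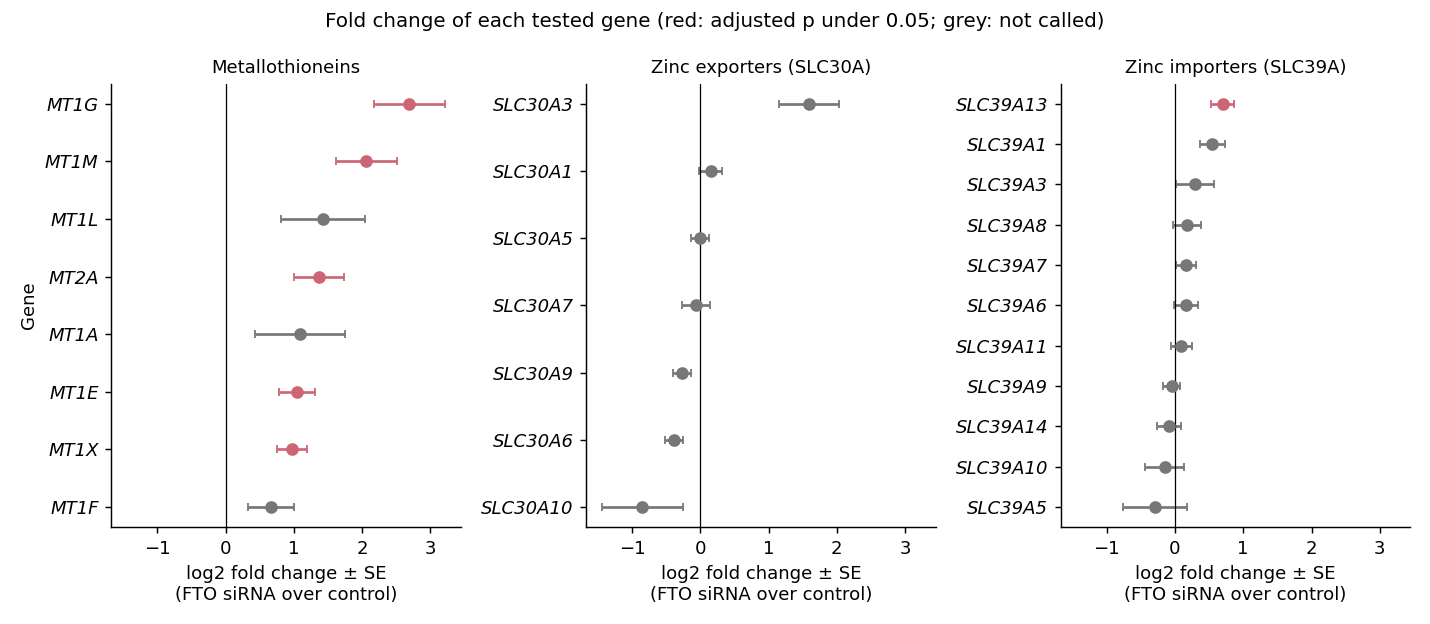
Log2 fold change ± SE, FTO siRNA over control siRNA, for each tested metallothionein, SLC30A and SLC39A gene; red points have an adjusted p under 0.05. All 8 tested metallothionein genes lie above 0, and among the transporters SLC39A13 is the only red point.

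Among the rest of the metallothionein family, the transcribed pseudogene MT1L was the only other gene with enough counts to test. It had 5, 17 and 10 counts in the controls and 50, 27 and 13 with FTO siRNA, and its log2 fold change of 1.43 ± 0.62 did not pass (adjusted p = 0.175). MT1B had 0 counts in each control and 4, 1 and 1 with FTO siRNA, and the pseudogene MT1DP had 1, 4 and 0 counts in the controls and 5, 3 and 0 with FTO siRNA. The neuronal MT3 and the epithelial MT4 had 0 counts in every library. In all, 13 of 21 family genes were not tested, and 6 of them had no count anywhere.

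The 7 metallothioneins lie side by side on chromosome 16, the chromosome that also holds FTO, whereas MTF1 and SLC30A1 lie on chromosome 1 and SLC39A14 on chromosome 8. In RefSeq order the tested genes of the cluster are MT2A, MT1L, MT1E, MT1M, MT1A, MT1F, MT1G and MT1X. The 5 nearest tested protein-coding genes on each side were compared with them, a choice made after the metallothionein values were seen. Of these 10 flanking genes 1 rose and 0 fell, near the background of 7.53% higher and 3.83% lower. The nearest on either side, BBS2 (-0.25 ± 0.15, adjusted p = 0.303) and NUP93 (0.07 ± 0.15, adjusted p = 0.791), did not pass. The flanking gene that rose was CES1, a liver carboxylesterase at the far left of the window, which went from 2.73 to 12.2 CPM (2.16 ± 0.29, adjusted p = 0.00471). The median over the flanking genes was 0.13.

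**Figure D5:**
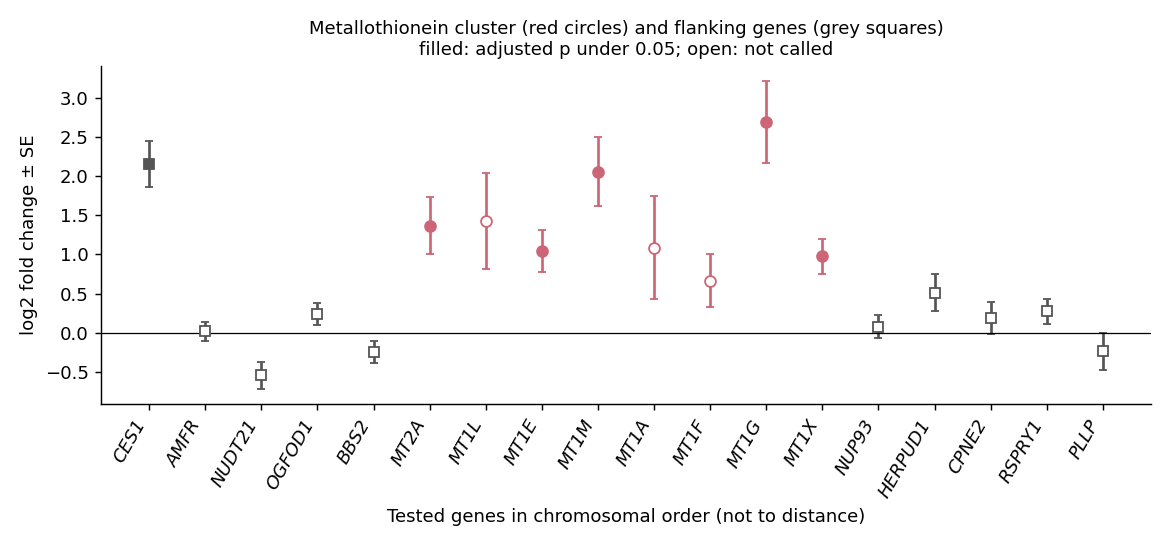
Log2 fold change ± SE of the tested genes of the metallothionein cluster (red circles) and of the 5 tested protein-coding genes on each side (grey squares), in chromosomal order without distances; filled symbols have an adjusted p under 0.05. The cluster genes lie between 0.67 and 2.69 and the flanking genes, CES1 apart, between -0.54 and 0.51.

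Copper, the other metal that metallothioneins hold, was followed in 16 genes of copper handling. Of 14 tested, 0 rose and 1 fell (background 7.53% and 3.83%), with a median log2 fold change of 0.00. Without FTO siRNA 3, where 2430 genes were called higher and 2152 lower over the whole table, 6 were called. The gene that fell was ATP7B, the copper pump of hepatocytes that loads ceruloplasmin and exports copper to bile. ATP7B had 81.4, 86.8 and 82.8 CPM in the controls and 38.4, 47.3 and 42.3 CPM with FTO siRNA. Both groups were tight and far apart. It fell by 0.97 ± 0.14 (adjusted p = 0.00563), and it was called in all 6 fits with 1 library left out. COMMD1, a partner of ATP7B (9.24 to 13.996 CPM, adjusted p = 0.115), and COX17, a mitochondrial copper chaperone (44.6 to 63.4 CPM, adjusted p = 0.122), did not pass, except without FTO siRNA 3 (0.00713 and 0.0129).

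Genes induced by metals and oxidants rose at 1 of 13 tested members, a share near the 7.53% of all tested genes, with a median of 0.08. Without FTO siRNA 3, 5 of them were called, in a fit with 2430 genes higher and 2152 lower over the whole table. The gene that rose was HMOX1, heme oxygenase 1, a common responder to cadmium and oxidants. HMOX1 had 51.6, 52.2 and 46.7 CPM in the controls and 124, 103.96 and 74.1 CPM with FTO siRNA, with FTO siRNA 3 again the lowest of its group, and rose by 1.00 ± 0.20 (adjusted p = 0.0157). It lost its call without control 1 (0.0798), control 2 (0.0765) or control 3 (0.0719). SLC7A11, the cystine importer (1.77 ± 0.82, adjusted p = 0.202), and TXNRD1, thioredoxin reductase (0.49 ± 0.24, adjusted p = 0.217), did not pass, but TXNRD1 did without FTO siRNA 3 (0.00432). SLC7A11 stood at 231 CPM in FTO siRNA 3 against 17.9 and 28.2 CPM in FTO siRNA 1 and 2, and without FTO siRNA 3 its log2 fold change was -0.25.

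The genes whose level followed the summed metallothioneins most closely over the 6 libraries were looked up among the 8322 genes whose average log2 CPM reached 4. They were INPP5K, a phosphoinositide phosphatase (Pearson's r = 0.99), the inflammatory caspase CASP4 (0.98), the apoptosis inhibitor BIRC2 (0.98), the protease inhibitor TFPI2 (0.98) and the transaminase ABAT (0.97). The most opposite were DENND4B (-0.997), TTYH3 (-0.99) and CPSF7 (-0.99). These values describe 6 libraries that share the group difference and the depth of each library, and carry no test. TFPI2 rose in the comparison of groups (8.29 to 29.97 CPM, adjusted p = 0.0425), with 3.86, 12.98 and 8.03 CPM in the controls and 44.001, 31.3 and 14.7 CPM with FTO siRNA. The adjusted p was 0.137, 0.0619 and 0.127 without controls 1, 2 and 3, and 0.119 and 0.0999 when FTO siRNA 1 or 2 was left out.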

How the data were processed

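RNA was extracted with Trizol and libraries followed standard Illumina methods, per the labels' protocols. The authors deposited raw counts per Ensembl gene, 1 table per library. Per the submitters' processing notes, TopHat2 2.0.11, TopHat, HTSeq, hg19 and GRCh37 were used in roles they do not state; counting settings and strand are not stated either. Of 60483 identifiers, 56753 matched GENCODE 29, used for symbols, chromosomes and lengths; RefSeq gave gene order and promoters.

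Counts were filtered with filterByExpr (minimum count 10), scaled by TMM and tested with edgeR 4.0.16 in R 4.3.3 (glmQLFit with legacy=FALSE, glmQLFTest, two-sided, intercept and group, Benjamini-Hochberg). Standard errors are the log2 fold change over the square root of F. Alternatives were other scalings and filters, DESeq2 1.42.0, limma-voom (limma 3.58.1), the replicate number as a block and each library left out; removal of length and GC trends (lowess, span 0.3) was added after the data were seen. On simulated data for this comparison, with 14735 genes fitted, 9.09% of genes changed 1.5-fold were called. The share was 60.9% for genes changed 2-fold and 96.8% for genes changed 4-fold. Not passing the test thus says little about changes of 1.5-fold. The simulated counts had the typical spread for their level, with no spread particular to a gene and no outlying library. The shares may therefore be too high for genes that vary as the metallothioneins do here. Every pair of libraries differed beyond sampling noise, measured as chi-square over its degrees of freedom. The largest value, 118, was between FTO siRNA 1 and 3, and FTO siRNA 2 and 3 had 82.6. FTO siRNA 1 and 2 had 20.4, and FTO siRNA 2 and control 3 had 28.2. FTO siRNA 3 thus lay farther from its own group than FTO siRNA 2 lay from control 3. All 37 mitochondrial genes were listed at 0.

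The genes and lists were chosen with earlier results of these data known. Named beyond the 10 genes were those past the threshold in each list, up to 4 per direction, the 2 smallest p-values that did not pass, and the 5 most and 3 least correlated genes; other names are marked in the text.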

Additional observations from a re-analysis of the deposited data

How the results depend on the processing

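Against 1132 genes higher and 575 lower with all libraries, leaving out 1 library gave 236 to 2430 higher and 94 to 2152 lower, and 0 to 7 of the 10 zinc genes higher where all libraries gave 5. DESeq2 called 1029 genes lower. With the replicate number as a block, 736 genes were higher and 305 lower and 3 of the 10 genes were called (MT1G, MT1M and MT2A; MT1E and MT1X had adjusted p = 0.0565 and 0.0768), and SLC39A13 lost its call (0.0835). Deviations from the group mean had r = -0.14, -0.06 and -0.25 between same-numbered libraries 1, 2 and 3. Between libraries of unlike number r ran from -0.10 (control 1 and FTO siRNA 2) to 0.21 (control 3 and FTO siRNA 1). Deviations within a group of 3 depend on each other, so these values cannot decide whether equal numbers mark pairs. With length and GC trends removed by the longest transcript 3 of the 10 genes were called, by the median transcript 4, and limma-voom called 4, without MT1E (adjusted p = 0.0543). DUSP1 lost its call with no composition factors (0.0561), at 1 CPM in 3 libraries (0.0505) and with trends removed (0.0889 and 0.058). With trends removed by the longest transcript the log2 fold change turned to 0.068 for MTF1 and -0.0096 for SLC39A7. With 1 library left out it ran from -0.013 (without FTO siRNA 3) to 0.26 for SLC30A1, from -0.28 to 0.016 (without FTO siRNA 1) for SLC39A14 and from -0.25 (without FTO siRNA 3) to 2.24 for SLC7A11. None of these 5 genes was called in those fits or with all libraries, and the cause was not tested. MT1A was not tested at 1 CPM in 3 libraries. Counts of 20 or fewer per library, as for MT1G and MT1M in the controls, limit the precision of their folds.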

Other observations

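Metallothioneins also answer to glucocorticoids and to interleukin 6, and lists of both responses were read from the same fit. Of 10 glucocorticoid response genes 1 rose, DUSP1, a phosphatase of MAP kinases that many stimuli induce (73.6 ± 32.9 to 189 ± 56.9 CPM, edgeR adjusted p = 0.0462), and the median log2 fold change was 0.48. This count is near the 7.53% of all tested genes called higher. For DUSP1 the adjusted p was 0.101, 0.109 and 0.0797 without controls 1, 2 and 3, and 0.0863 and 0.0677 when FTO siRNA 1 or 2 was left out. SGK1, a kinase of sodium transport (107 to 157 CPM, adjusted p = 0.0742), and TAT, tyrosine aminotransferase (2.32 to 4.22 CPM, adjusted p = 0.171), did not pass. Without FTO siRNA 3, 2 genes of the list were called, SGK1 among them (0.00819). That fit called 2430 genes higher and 2152 lower over the whole table.

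Of 15 tested genes of the acute phase and of interleukin 6 signalling 2 rose and 0 fell (7.53% and 3.83% over all tested genes), with a median of 0.36. The number called was 1 without control 1, 5 with no filter or with DESeq2, and 9 without FTO siRNA 3. The last fit called 2430 genes higher and 2152 lower over the whole table. SOCS3, the feedback inhibitor of STAT3, went from 4.1005 ± 1.33 to 27.2 ± 11.2 CPM (adjusted p = 0.00404), and it was called in all 6 fits with 1 library left out. The cytokine gene IL6, the other gene that rose, passed the filter only through the FTO siRNA libraries, with 0 of 3 controls over it. Its call is therefore not read against the 7.53%, which leaves SOCS3. It had 3, 9 and 2 counts in the controls and 28, 24 and 50 with FTO siRNA (adjusted p = 0.0128), and its call was lost without control 1 (0.0786) or control 3 (0.0563). The serum amyloid gene SAA1 had 2.72, 9.14 and 3.08 CPM in the controls and 31.2, 19.95 and 8.02 CPM with FTO siRNA (adjusted p = 0.06), and passed with no filter (0.0326), with DESeq2 (0.00262) and without FTO siRNA 3 (0.00366). As with MT2A, control 2 was the highest control and FTO siRNA 3 the lowest treated library, but for SAA1 they overlapped. SAA2 did not pass with all libraries (adjusted p = 0.0679).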
